A study of Mus musculus with 2 samples.

Results

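The transcripts of 6 surface antigens used to sort or grade mouse blood stem cells were followed after culture: Slamf1 (CD150), Cd48, Procr (EPCR), Ly6a (Sca-1), Cd27 and Pdzk1ip1. They were chosen by name and make up 6 of the 14366 genes in the tables, and all 6 were in both tables. Haematopoietic stem cells (HSC) were sorted from pooled, lineage-depleted bone marrow of 8 wild-type C57/B6 mice aged 6 to 8 weeks, as lineage-negative, Sca-1+, c-Kit+, CD150+ and CD48- cells. They were held for 48 h in a medium with 100 ng/ml stem cell factor, 50 ng/ml thrombopoietin and the antibiotic Primocin, with 10 µM DFO, an iron chelator, or with sterile water as the vehicle. For each condition 20000 live cells were loaded for droplet 3′ RNA sequencing, which gave 1 vehicle library and 1 DFO library. With 1 library per condition there is no test of DFO against vehicle, and each condition is 1 culture of pooled cells.

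CD150 and CD48 belong to the SLAM family of receptors on blood cells, and CD150-positive, CD48-negative cells of the lineage-negative, Sca-1+, c-Kit+ fraction are the classic enriched source of mouse HSC. CD48 appears on multipotent and committed progenitors. EPCR and Sca-1 are high on mouse HSC, CD27 is found on HSC and on early progenitors, and Pdzk1ip1, a small membrane protein that binds PDZ-domain scaffolds, is known as a transcript enriched in HSC. The sort acted on proteins, before culture; all values here are transcripts after culture, and no uncultured cells were analysed here.

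The tables hold 8708 vehicle and 9852 DFO cells, with 260938938 and 284326017 RNA molecules. A cell had a median of 27806 molecules in the vehicle library (2009 to 98885) and 27114 in the DFO library (2020 to 99237), and the median mitochondrial share was 3.88% and 4.4%. The libraries shared 24 cell barcodes. Of 18 HSC markers fixed for this work and found in the tables, none of them among the 6, 17 were at 1 CPM or more (molecules of the gene per 1000000 of the library) in each library. Of 8 antigens used for lineage depletion, only Itgam was analysed here, at 0.851 and 0.693 CPM. The 13 megakaryocyte markers in the tables were all at 1 CPM or more, and their summed level was 2522 CPM in the vehicle and 1416 CPM in the DFO library. Most of that difference lay in Pf4, at 1447 and 592 CPM; without it the sums were 1074 and 823 CPM. Of the 11 markers at a mean of 5 CPM or more, 8 were lower in DFO by at least 0.25 on the log2(CPM + 1) scale and 0 higher, where 2.58% and 1.4% of all genes at that level were.

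The 6 genes lie on 5 chromosomes in the mouse build GRCm38.p6 (mm10), by the RefSeq annotation. Slamf1 lies on chromosome 1, from base 171767131 to 171801184, on the plus strand. Cd48 lies on the same strand, from 171681245 to 171705258, so the 2 antigens that define the sort gate are neighbours with 61872 bases and 3 annotated genes between them. Procr lies on chromosome 2 (155751125 to 155755478, plus strand), Pdzk1ip1 on chromosome 4 (115088708 to 115093894, plus strand), Cd27 on chromosome 6 (125232620 to 125237136, minus strand) and Ly6a on chromosome 15 (74994877 to 74998031, minus strand). Ly6a overlaps the gene model Gm28068, and Cd27 overlaps E130112N10Rik and Mir8113. No stretch of 91 bases, the length of the RNA read, in the last 500 bases of any transcript of the 6 was also found in another gene of the GENCODE annotation.

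Slamf1 and Pdzk1ip1 are the pair whose levels were lower in the DFO library, so the sequence before their start sites is shown, from RefSeq's GRCm38.p6 promoter table and 5′ to 3′ on the plus strand. The table matched 5 of the 6 by symbol, all but Ly6a. The windows are chr1:171766882-171767126 and chr4:115088458-115088707, and capitals mark a match to a GATA motif.
Slamf1: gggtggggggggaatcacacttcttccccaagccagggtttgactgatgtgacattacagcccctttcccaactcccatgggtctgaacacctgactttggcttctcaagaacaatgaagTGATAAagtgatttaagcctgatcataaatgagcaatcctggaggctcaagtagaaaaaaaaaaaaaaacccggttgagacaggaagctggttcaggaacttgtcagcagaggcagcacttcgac
Pdzk1ip1: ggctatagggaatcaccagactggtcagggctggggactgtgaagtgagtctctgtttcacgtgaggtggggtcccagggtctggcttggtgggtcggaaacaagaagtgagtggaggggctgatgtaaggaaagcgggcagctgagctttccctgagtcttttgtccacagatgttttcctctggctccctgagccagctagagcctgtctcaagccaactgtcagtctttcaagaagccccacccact
The search covered both strands for GATA motifs (AGATAA or the form AGATAG, and TGATAA or the form TGATAG), an ETS motif (GGAAGT), a RUNX motif (TGTGGT) and a STAT motif (TTCNNNGAA). The Slamf1 window held 1 match, TGATAA, 130 bases before the start, and the Pdzk1ip1 window held none. Of the other matched genes, none of them past 0.25 in DFO, Cd27 held 2 GATA matches, Cd48 held 1 RUNX match and Procr held none. Over the 32851 promoter windows of 250 bases in the table, 26.5% held a GATA match, 19.7% an ETS match, 14% a RUNX match and 7.02% a STAT match. A match describes letters in the window and does not show a bound site.

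After 48 h of DFO, Ly6a transcripts stood higher than in the vehicle library, while Pdzk1ip1 and Slamf1 stood lower; Cd48, Cd27 and Procr differed less. Levels are given in CPM with exact 95% Poisson intervals. Ly6a was at 83.9 CPM (82.8 to 85) in the vehicle and 111 CPM (110.0 to 112) in the DFO library, a difference of 0.40 on the log2(CPM + 1) scale. Pdzk1ip1 was at 23.4 CPM (22.8 to 24) and 17.1 CPM (16.6 to 17.6), a difference of -0.43. Slamf1 was at 14.4 CPM (14 to 14.9) and 11.8 CPM (11.4 to 12.2), a difference of -0.27. For these 3 genes the intervals of the libraries did not overlap, nor did those of Cd48, Cd27 and Procr given below. The intervals cover counting error only, treat molecules as independent, and leave out variation between cells, cultures and library preparations.

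The sort marker of the progenitor side, Cd48, was at 103 CPM (102 to 105) against 108 CPM (107 to 109), a log2 difference of 0.067. Cd27, a TNF receptor family member, was at 43.4 CPM (42.6 to 44.2) and 46.1 CPM (45.3 to 46.9), a log2 difference of 0.084. Procr, the endothelial protein C receptor, was at 5.17 CPM (4.9 to 5.45) and 5.75 CPM (5.48 to 6.04), a log2 difference of 0.13. Past an absolute log2 difference of 0.25 there were 3 of the 6, 1 higher in DFO and 2 lower. Among all 8886 genes at a mean of 5 CPM or more, 3.97% were past that size, 1.4% higher and 2.58% lower, and the median log2 difference was 0.019. Since the 6 genes were picked with earlier results of these libraries known, the count says nothing particular about them. Giving each cluster of similar cells the same share in both libraries left only Pdzk1ip1 past 0.25, with Ly6a at 0.22 and Slamf1 at -0.085, and Slamf1 was also at -0.15 in cells thinned to 1 depth.

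**Figure D1:**
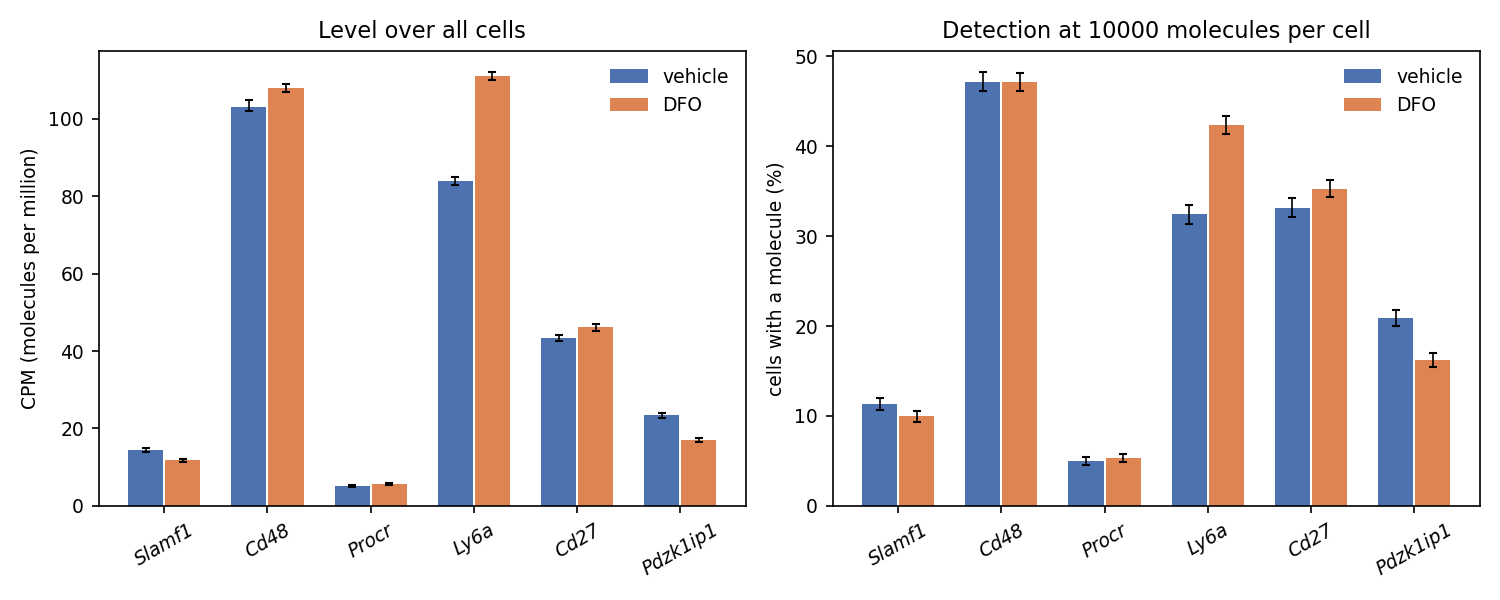
Left, level of each gene in CPM over all cells of the vehicle and the DFO library, with exact 95% Poisson intervals. Right, percent of cells with at least 1 molecule after thinning each cell to 10000 molecules, with exact 95% Clopper-Pearson intervals; Ly6a is higher in DFO (32.5% against 42.3%), Pdzk1ip1 lower (20.9% against 16.2%), and Cd48 is at 47.1% in both.

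To compare detection at equal depth, each cell was thinned to 10000 molecules. This left 8357 vehicle and 9419 DFO cells and set aside 351 and 433 shallower ones. The share of cells with Ly6a was then 32.5% in the vehicle (31.4% to 33.5%, exact 95% Clopper-Pearson interval) and 42.3% in the DFO library (41.3% to 43.3%). Pdzk1ip1 was detected in 20.9% (20.0% to 21.8%) and 16.2% (15.5% to 17%). Slamf1 was detected in 11.3% (10.7% to 12%) and 9.98% (9.38% to 10.6%); the intervals of all 3 genes were apart, for Slamf1 by a narrow margin. Cd48 was detected in 47.1% of cells in each library, and Procr in 4.99% and 5.3%. Cd27 was detected in 33.1% (32.1% to 34.2%) and 35.2% (34.3% to 36.2%), also with intervals apart by a narrow margin. Without thinning the shares were 47.7% and 58.3% for Ly6a, 44.2% and 34.6% for Pdzk1ip1, 26.5% and 22% for Slamf1, 64.4% and 64.4% for Cd48, 58.1% and 60.9% for Cd27, and 10.5% and 11.9% for Procr.

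Ly6a was the most unevenly spread of the 6. Its variance over thinned cells was 5.23 times its mean in the vehicle and 4.46 times in the DFO library, and single cells reached 49 and 37 molecules. The share of cells with 6 or more Ly6a molecules was 3.92% in the vehicle and 5.67% in the DFO library. Cd48 had a variance of 2.35 and 2.4 times its mean. For Slamf1 the ratio was 1.18 and 1.22, no cell had more than 4 molecules, and 9.86% of vehicle and 8.5% of DFO cells held exactly 1. A thinned cell with no Slamf1 molecule is therefore not shown to lack the transcript.

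Read as transcripts, the sort phenotype was held by few cells in both libraries. Cells with Slamf1 and without Cd48 made up 5.8% (5.31% to 6.33%) of the vehicle and 4.96% (4.53% to 5.42%) of the DFO library, a difference of -0.845 percentage points. The intervals of the shares overlap, while the normal 95% interval of the difference, over cells and for counting error only, was -1.51 to -0.18 points. It was -1.77 points (-2.56 to -0.968) at 20000 molecules per cell, -1.55 unthinned, -0.0571 with equal cluster shares and 0.095, the other way, when 2 molecules were required for a gene to count as present. The product of the single shares, which is what unlinked genes would give, was 6% and 5.28%. Cells with both transcripts made up 5.54% and 5.02%, cells with Cd48 alone of the pair 41.6% and 42.1%, and cells with neither 47.1% and 48%.

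Slamf1-positive cells did not lack Cd48. Of the 948 vehicle cells with Slamf1, 48.8% (45.6% to 52.1%) also held Cd48, beside 46.9% (45.8% to 48.1%) of the cells without Slamf1. In the DFO library these shares were 50.3% (47.1% to 53.6%) and 46.7% (45.7% to 47.8%). The excess of 1.91 points in the vehicle turned to -1.54 at 5000 molecules per cell and -0.608 in male cells, and that of 3.59 points in DFO to -2.77 with 2 molecules required, so its direction is not settled. In cells at full depth, which differ in depth, the excess was 9.86 and 11 points.

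Adding further gate genes thinned the class to a few cells. Kit, which encodes the c-Kit of the gate, was detected in 30.2% of vehicle and 34% of DFO cells. Kit and Ly6a together were found in 12.1% and 15.4%, against products of 9.81% and 14.4%. The full transcript version of the gate, with Kit, Ly6a and Slamf1 and without Cd48, was met by 51 vehicle cells (0.61%, 0.455% to 0.802%) and 63 DFO cells (0.669%, 0.514% to 0.855%), close to the products of 0.588% and 0.758%. Procr with Slamf1 and without Cd48 was met by 22 cells (0.263%) and 27 cells (0.287%). At least 1 of the 6 genes was detected in 85.5% of vehicle and 87.5% of DFO cells. All 6 together were detected in 0 of 8357 and 0 of 9419 thinned cells. Counting 3 cells as the limit a count of 0 allows, shares detected this way could be up to 0.0359% and 0.0319%, and the exact intervals reach 0.0441% and 0.0392%; neither limits the cells that express all 6. Of the 64 possible combinations of presence and absence, 57 were seen in each library, and the most frequent was Cd48 alone, in 17.2% and 16.4% of cells.

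Across the 15 pairs, the pair found together most in excess was Procr with Ly6a, and the pair most apart was Procr with Cd48, in both libraries. Of cells with Procr, 78.9% (74.7% to 82.7%) also held Ly6a in the vehicle and 79.2% (75.3% to 82.6%) in the DFO library. Among cells without Procr the shares were 30% and 40.2%. The share of cells with both was 2.43 times the product of the single shares in the vehicle and 1.87 times in DFO. For Procr with Cd48 the ratio was 0.448 and 0.477: 21.1% of Procr-positive vehicle cells and 22.4% of those in DFO held Cd48, against 48.5% of Procr-negative cells in each library.

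Slamf1 was found with Procr, Ly6a and Cd27 less often than the products of their shares. Its ratio was 0.592 and 0.683 with Procr, 0.65 and 0.758 with Ly6a, and 0.608 and 0.752 with Cd27. It was above 1 with Pdzk1ip1, at 1.14 and 1.21, and near 1 with Cd48, at 1.04 and 1.07. Ly6a and Cd48 had ratios of 0.721 and 0.761. Cd27 had ratios near 1 with Cd48 (1 and 0.983) and with Pdzk1ip1 (1.01 and 1.03), and above 1 with Ly6a (1.24 and 1.16) and Procr (1.31 and 1.17). Pearson correlations were taken on log2(thinned molecules + 1) over the 8357 and 9419 cells, which share library and depth. They were 0.33 and 0.26 for Procr with Ly6a and -0.23 and -0.25 for Cd48 with Ly6a. For the other 13 pairs they lay between -0.12 and 0.10.

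**Figure D2:**
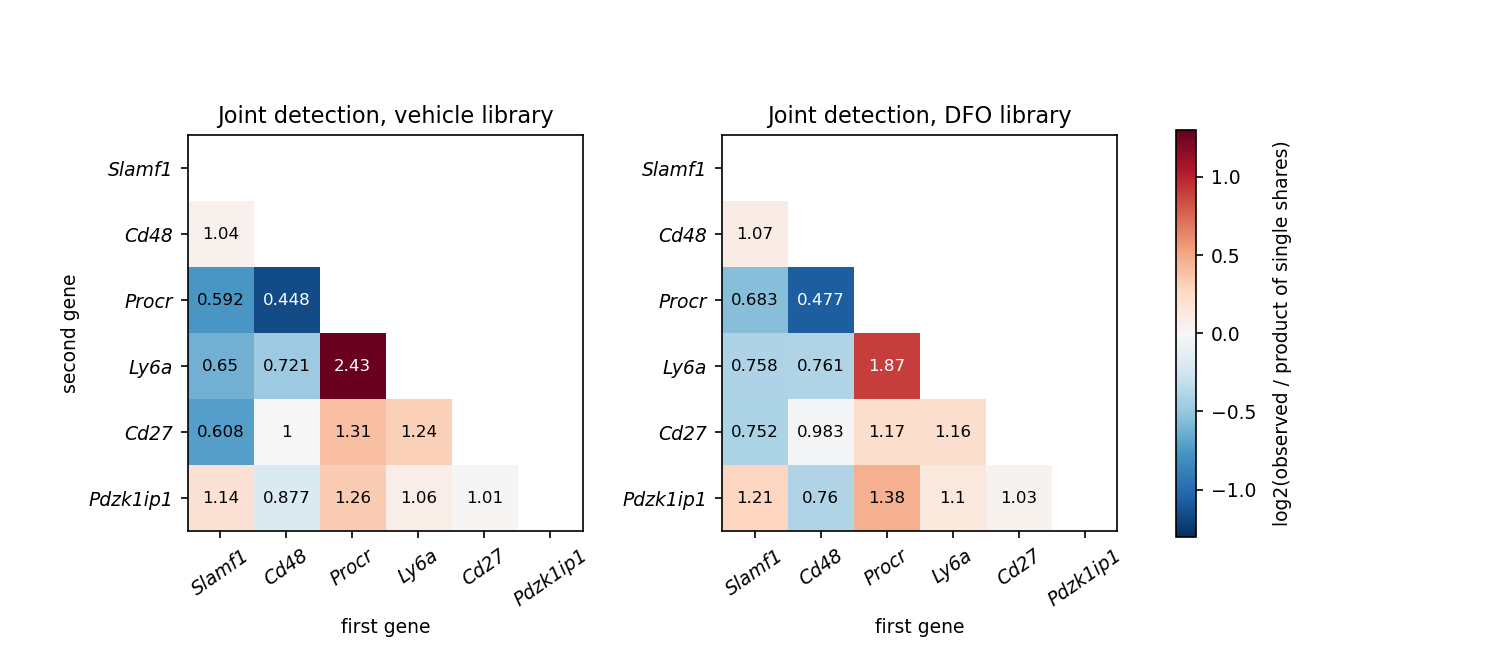
Observed share of cells with both genes divided by the product of the single shares, for all 15 pairs, in cells thinned to 10000 molecules; colour gives the log2 of the printed ratio, red above 1 and blue below. Procr with Ly6a (2.43 and 1.87) and Procr with Cd48 (0.448 and 0.477) are the extremes in both libraries.

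The relation of Cd48 to Ly6a and Procr was graded. Vehicle cells with 0 Cd48 molecules held 138 CPM of Ly6a (134 to 141) and 9.15 CPM of Procr (8.28 to 10.1), and cells with 3 or more held 30.3 CPM (27.3 to 33.7) and 1.2 CPM (0.656 to 2.01). Read the other way, from vehicle cells with 0 Ly6a molecules to cells with 3 or more, Procr went from 1.61 to 28 CPM and Cd48 from 119.7 to 32.3 CPM. In the DFO library the same steps took Procr from 1.99 to 19.7 CPM and Cd48 from 127 to 36.6 CPM.

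The 485 vehicle and 467 DFO cells with Slamf1 and without Cd48 were described by genes outside the pair. Beside cells with neither transcript they held more megakaryocyte marker molecules, 40.5 against 22.9 per cell in the vehicle and 23 against 13.4 in DFO. Vwf, the von Willebrand factor of platelets and of platelet-primed HSC, was detected in 12% (9.21% to 15.2%) against 5.26% (4.59% to 6.01%) in the vehicle, and in 8.14% (5.82% to 11%) against 3.96% (3.41% to 4.57%) in DFO. Hlf, a transcription factor of HSC, went the other way, in 23.1% against 43.2% of vehicle and 28.1% against 49.2% of DFO cells. Ly6a was detected in 24.3% against 42.5% and in 36.6% against 52.8%. Procr was detected in 4.54% against 7.81% and in 5.78% against 7.97%, with overlapping intervals in DFO. Beside cells with both transcripts the class was higher for Hlf, Ly6a and Procr as well as for the megakaryocyte markers and Vwf. Cells with both held Hlf in 19% of the vehicle and 22.4% of DFO, Ly6a in 17.7% and 27.5%, and Procr in 1.3% and 1.48%. The intervals overlapped for Hlf in both libraries and for Ly6a in the vehicle. Cells with both held 26.2 and 14.6 megakaryocyte marker molecules, and Vwf in 4.32% and 2.11%. The neutrophil enzyme gene Mpo was in none of the cells with Slamf1 and without Cd48, with exact intervals up to 0.758% and 0.787%. In cells with neither transcript it was in 0.814% (0.557% to 1.15%) and 0.974% (0.709% to 1.31%), so the intervals overlap.

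All cells were clustered together without the 6 genes, which gave 9 clusters, 3 of them named from fixed markers and 6 left unnamed. The HSC-like cluster (1553 cells, led by Dlk1, Wfdc2 and Fscn1) has 1 HSC marker, Sult1a1, among its 10 leading genes, which also hold Ramp2, Sox18 and Ecscr, genes known from endothelium. Of the 18 HSC markers 15 were higher in it than in the other cells, among them Mecom, Hlf and Fgd5, and 3 lower, Meis1, Gfi1b and Vwf. Its summed HSC markers, 2511 CPM in the vehicle and 2512 CPM in DFO, were below the 2592 CPM of unnamed cluster 4 in the vehicle. Its 4 stromal or endothelial markers summed to 32 and 32.8 CPM, against 43.3 and 41.5 CPM over all cells. Only 1 of these 4 was at 1 CPM or more over all cells of each library, so that sum is in effect 1 gene. The megakaryocyte-like cluster (1357 cells) has Clec1b, Pf4, Cavin2 and Ppbp among its 10 leading genes, and the neutrophil-monocyte-like cluster (2163 cells) has Mpo and Ctsg. Unnamed cluster 1 (3293 cells) is led by Csrp3, Egr1 and Gp5 with Gata1, Aqp1 and Klf1, unnamed cluster 8 (879 cells) by Il1rl1 with Gata1 and Klf1, and unnamed cluster 2 (2836 cells) by Bex6 and Tmem121. Cluster 7 (892 cells) is a set of shallow cells with a median of 6966 molecules. Differences between clusters are a description, and the number of cells per cluster is not compared between libraries.

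Procr and Ly6a were concentrated in the HSC-like cluster. Procr was at 23.6 CPM (21.4 to 25.9) there in the vehicle and 19.8 CPM (18 to 21.7) in the DFO library, and was at or below 0.456 CPM in clusters 1 and 8 and the megakaryocyte-like cluster. For Ly6a the HSC-like cluster had 341 CPM (332 to 349) and 359 CPM (351 to 367), and the megakaryocyte-like one 6.07 CPM (5.33 to 6.89) and 8.49 CPM (7.32 to 9.79). Over both libraries the highest cluster stood above the lowest by 62.8-fold for Procr and 50.6-fold for Ly6a. These sizes depend on how finely the clusters are drawn, with 29.4-fold and 15.6-fold over 4 clusters and 286-fold and 74.8-fold over 17. The Procr level of cluster 1, the lowest of the 9 clusters, is not distinguishable from background, so the Procr folds are not exact. In cluster 8 free RNA, bounded below, could make up to 59.7% and 40.9% of the Procr level.

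Slamf1 and Cd48 were both low in the HSC-like cluster. Slamf1 was at 6.7 CPM (5.56 to 8) and 7.22 CPM (6.18 to 8.39) there. Its highest levels were in the megakaryocyte-like cluster, at 26.5 CPM (25 to 28.2) and 23.1 CPM (21.2 to 25.2), in cluster 8, at 25.4 and 27 CPM, and in cluster 1, at 24.5 and 22.4 CPM. The intervals of these 3 overlap within the vehicle library. Cd48 was highest in the neutrophil-monocyte-like cluster, at 161 CPM (157 to 166) and 171 CPM (167 to 175), and low in the HSC-like cluster, at 35.5 CPM (32.8 to 38.4) and 36.4 CPM (34 to 38.9), and in the shallow cluster 7, at 31.7 and 29.5 CPM. Cd27 was highest in cluster 2, at 83.9 CPM (80.4 to 87.4) and 72.5 CPM (69.8 to 75.3), and lowest in the megakaryocyte-like cluster, at 9.59 and 10.5 CPM. Pdzk1ip1 spanned 2.16-fold from its lowest to its highest cluster, against 4.56-fold for Slamf1, 5.46-fold for Cd48 and 7.78-fold for Cd27. The Slamf1 level of cluster 2, its lowest over both libraries, is not distinguishable from background. Nor is the Cd48 level of cluster 7 in DFO, so the Slamf1 and Cd48 spans are not exact. With 17 finer clusters, 1 of them a small neutrophil-monocyte-like one, the spans were 19-fold for Slamf1, 9.86-fold for Cd27, 8.88-fold for Pdzk1ip1 and 7.74-fold for Cd48, so their order was not kept. With 4 coarser clusters they were 3.82, 3.65, 1.68 and 4.35-fold.

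**Figure D3:**
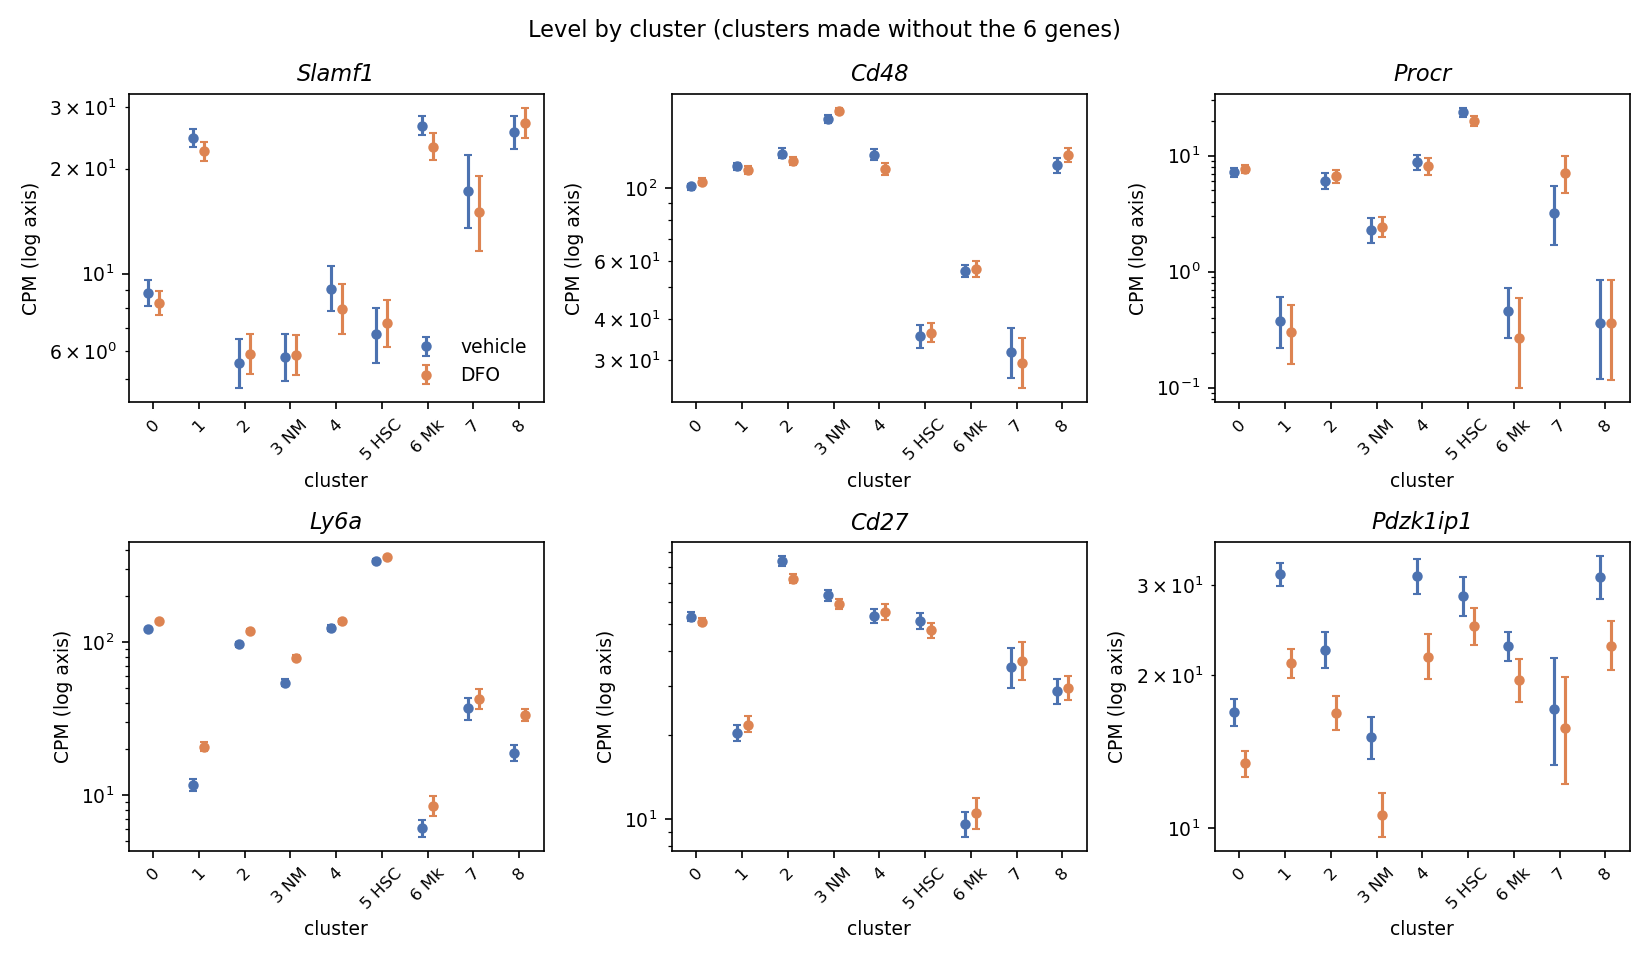
Level of each gene in CPM (log axis) in each of the 9 clusters, vehicle and DFO side by side, with exact 95% Poisson intervals; HSC, Mk and NM mark the HSC-like, megakaryocyte-like and neutrophil-monocyte-like clusters. Ly6a and Procr peak in the HSC-like cluster, where Slamf1 and Cd48 are low, and Pdzk1ip1 is lower in DFO in each of the 9 clusters.

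Within clusters, Ly6a was higher in the DFO library in 9 of 9, with intervals apart in 8, and Pdzk1ip1 lower in 9 of 9, with intervals apart in 6. With 17 finer clusters Ly6a was higher in 16 and lower in 1, with intervals apart in 13 of the 16. Pdzk1ip1 was lower in 17 of 17, with intervals apart in 5. With 4 coarser clusters each kept its direction in all 4, with intervals apart in 3. The values below are for the 9 clusters. Ly6a was at 11.7 CPM (10.7 to 12.7) against 20.7 CPM (19.3 to 22.1) in cluster 1, a log2 difference of 0.77, and at 18.9 CPM (16.7 to 21.3) against 33.5 CPM (30.5 to 36.7) in cluster 8, a difference of 0.79. In the HSC-like cluster, where its level was highest, the difference was 0.075. The neutrophil-monocyte-like cluster had 54.3 CPM (51.7 to 57.1) and 79.4 CPM (76.7 to 82.3), a difference of 0.54. Pdzk1ip1 was at 31.5 CPM (29.9 to 33.2) and 21.1 CPM (19.7 to 22.5) in cluster 1, a difference of -0.56, and the HSC-like cluster had 28.5 CPM (26.1 to 31.1) and 24.9 CPM (22.9 to 27), a difference of -0.19 with overlapping intervals.

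For Slamf1 no cluster had intervals apart: it was lower in DFO in 5 clusters and higher in 4, with log2 differences from -0.20 to 0.095. Procr likewise had no cluster with intervals apart, at -0.24 in the HSC-like cluster and at 0.95 in the shallow cluster 7, where it was at 3.17 CPM (1.69 to 5.43) and 7.05 CPM (4.79 to 10.0). With 4 coarser clusters the shallow one had 2.76 CPM (1.38 to 4.95) and 7.62 CPM (5.14 to 10.9), a difference of 1.19 with intervals apart. Cd48 was higher in DFO in the neutrophil-monocyte-like cluster by 0.083 and lower in cluster 4 by a difference of -0.14, each with intervals apart. Cd27 was lower in cluster 2, a difference of -0.21, with intervals apart there and in no other cluster. With clusters drawn more finely (17 clusters), the HSC-like cluster had Procr at 30.7 CPM (27.9 to 33.8) and 24.5 CPM (22.2 to 26.9), a difference of -0.31 with intervals apart, and Ly6a at 432 and 445 CPM with overlapping intervals.

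The levels were also read over cells ranked by the summed molecules of 13 megakaryocyte markers, in quintiles within each library. From the lowest to the highest quintile Slamf1 went from 4.96 to 23.2 CPM in the vehicle and from 4.67 to 22.4 CPM in DFO. Along the same ranking vehicle Ly6a stood at 165 CPM (159 to 172) in the lowest and 8.38 CPM (7.05 to 9.89) in the highest quintile. In DFO the 2 ends were 171 CPM (165 to 177) and 24.7 CPM (22.5 to 27). Procr went from 10.3 to 0.18 CPM and from 8.92 to 0.743 CPM, and Cd27 from 70.6 to 15.1 CPM and from 65.2 to 24.6 CPM. Cd48 was highest in the middle, at 124 CPM in the third vehicle quintile and 120.3 CPM in the fourth DFO quintile, and lowest in the top one, at 67.1 and 79.8 CPM. The top quintile began at 30 marker molecules per cell in the vehicle and at 15 in DFO, so equal ranks are not equal marker levels. Ranked without Pf4, which was tried after the values were seen, each of the 6 kept its direction from the lowest to the highest quintile in both libraries. In that top quintile of DFO cells Ly6a was at 39.7 CPM (36.9 to 42.7) and Procr at 1.81 CPM (1.25 to 2.52), above the values with Pf4.

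Summed megakaryocyte markers, of which Pf4 made up 47.6% and Pf4, Cd9 and Rap1b together 84.2% of the thinned molecules, were lower in the DFO library together with Slamf1 and Pdzk1ip1 and against Ly6a. Pdzk1ip1 was lower in DFO in 5 of 5 quintiles with intervals apart in all 5, and Ly6a higher in 5 of 5 with intervals apart in 4. Slamf1 was lower in 4 of 5, with intervals apart in 1. The part of the megakaryocyte markers in the Slamf1 difference was not tested; with equal cluster shares in both libraries that difference was -0.085.

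A ranking by 18 HSC markers, none of them among the 6, gave a picture for Cd48 that turned on 1 gene. Ifitm1, an interferon-inducible membrane protein gene, held 67.8% of the marker molecules. With it in the sum, Cd48 stood at 85 CPM (80.6 to 89.5) in the lowest and 129.6 CPM (124 to 135) in the highest vehicle quintile, and at 86.5 and 144 CPM in DFO. Without it, a choice made after the values were seen, Cd48 ran the other way, at 127 CPM (122 to 133) and 64.4 CPM (60.6 to 68.4) in the vehicle and 133 and 58.4 CPM in DFO. Pdzk1ip1 was likewise near level with Ifitm1, at 26.9 and 25.6 CPM in the vehicle, and stood at 19.9 and 35.8 CPM at the 2 ends without it. Ly6a, Procr and Cd27 were higher and Slamf1 lower in the highest quintile under both sums. Vehicle Ly6a was at 39.2 and 165 CPM with Ifitm1 and 33.6 and 208 CPM without, Procr at 1.85 and 12.3 CPM and at 1.79 and 14.6 CPM, and Slamf1 at 16.9 and 10.1 CPM and at 18.1 and 8.14 CPM.

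Ranked by 14 mitosis markers, cells with the fewest marker molecules held the most Pdzk1ip1, Ly6a, Procr and Cd27. Vehicle Pdzk1ip1 stood at 44.6 CPM (41.4 to 47.9) in the lowest and 19.9 CPM (17.8 to 22.1) in the highest quintile. It went from 30.9 to 16.1 CPM in DFO. Ly6a went from 149 to 84.9 CPM in the vehicle and from 184 to 122 CPM in DFO, and was lower still in the fourth quintile, at 69.6 and 96.3 CPM. Procr went from 10.3 to 5.57 CPM in the vehicle and from 8.55 to 6.74 CPM in DFO, where the intervals overlap. Cd27 went from 62.7 to 44.6 CPM and from 65.5 to 48.3 CPM. Ly6a was higher in DFO in all 5 quintiles with intervals apart in all 5, and Pdzk1ip1 lower in all 5 with intervals apart in 4. Slamf1 went the other way, with 11.1 CPM (9.53 to 12.8) at the low and 14.2 CPM (12.4 to 16.1) at the high end in the vehicle, where the intervals overlap, and 10.1 CPM (8.7 to 11.6) and 13.8 CPM (12.1 to 15.5) in DFO. Cells with few mitosis molecules were also shallower, with a median of 21480 molecules against 37518 at the other end in the vehicle and 21708 against 36004 in DFO. By depth alone, after thinning, Pdzk1ip1 was at 50.0 CPM in the shallowest and 16.8 CPM in the deepest vehicle quintile, and at 35.5 and 13.8 CPM in DFO; mitosis and depth were not told apart.

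**Figure D4:**
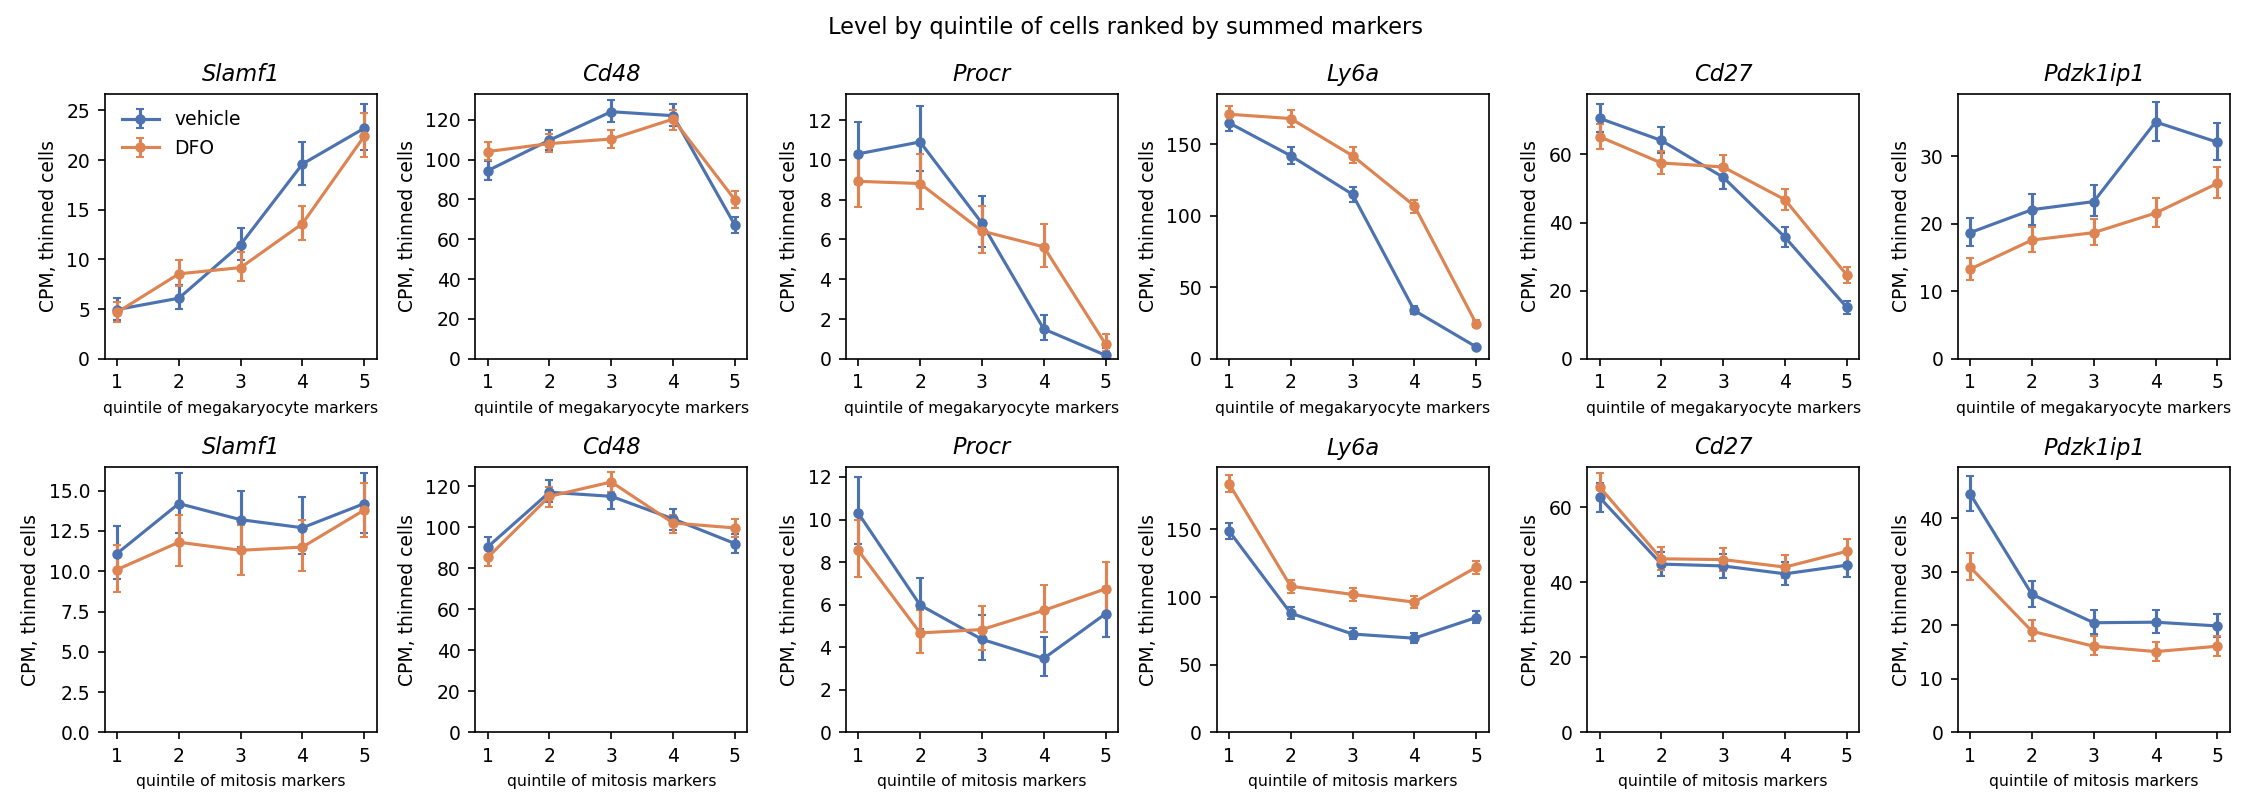
Level of each gene in CPM of thinned cells, by quintile of cells ranked within each library by summed megakaryocyte markers (top row) or mitosis markers (bottom row); bars are exact 95% Poisson intervals. Slamf1 climbs and Ly6a, Procr and Cd27 descend along the megakaryocyte ranking in both libraries, and Pdzk1ip1 is highest in the lowest mitosis quintile.

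Free RNA in the droplets can put molecules in cells that do not make them. Its size was bounded from Mpo, Elane and Ctsg, neutrophil genes, as their level in a cluster over their level in all cells. In the HSC-like cluster, from 8 and 25 molecules of these genes, the bound was 3.62% of the library mix in the vehicle and 9.38% in DFO. It allowed 10.5% and 27.9% of Cd48 there, and 2.9% or less of Ly6a or Procr in either library. The bounds carry no interval for counting error, which is large for so few molecules. In the megakaryocyte-like cluster the bound, from 11 and 5 molecules, allowed 31.7% and 26.1% of Ly6a and 26% and 42.6% of Procr. In cluster 1 it came to 118% and 134% of the Procr level, so Procr there is not distinguishable from background. For Ly6a there it came to 61.7% and 37.8%, which is 7.21 and 7.81 CPM. In cluster 2 the bound was 223% and 105% of the Slamf1 level, and in cluster 7 it was 19.6% and 104% of the Cd48 level. As a type low in Slamf1, the neutrophil-monocyte-like cluster of the finer clustering (131 cells in each library, median depths of 30546 and 27681 molecules) had Slamf1 in 0 of 131 thinned vehicle cells, an exact interval up to 2.78%, and in 3.82% of DFO cells (1.25% to 8.68%). Ly6a was found in 10.7% and 12.2% of those cells.

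By sex of the cell, called from Xist and Y-linked molecules, the 3 larger differences had the same direction in the 4751 and 5251 female and the 2767 and 3266 male cells. Ly6a differed by 0.39 and 0.40, Pdzk1ip1 by -0.43 and -0.48, and Slamf1 by -0.28 and -0.21. Procr differed by 0.25 in female cells, at 4.62 CPM (4.27 to 4.99) and 5.66 CPM (5.29 to 6.06), and by 0.057 in male cells, and the difference between the sexes was not tested.

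The 7129 genes detected in at least 10% of thinned cells were ranked by Pearson r with each of the 6, on log2(thinned molecules + 1). Genes with the highest mean r of the 2 libraries are named. For Ly6a these were S100a4 (0.43 in the vehicle, 0.41 in DFO), Hlf (0.40 and 0.36), Cd53, Fkbp1a and Emb. Procr shared 4 of them, Cd53 (0.25 and 0.19), Hlf (0.23 and 0.20), S100a4 and Fkbp1a, beside Lgals1. Cd48 was followed by Tespa1 (0.27 and 0.28), Plac8, 4930519L02Rik, Fabp5 and Nkg7, and Cd27 by H2afy (0.31 and 0.29), Cd34, Myl10, Ramp1 and Sox4. For Slamf1 the values were low: Serpina3g (0.16 and 0.17), Clint1, Prkar2b and the platelet chemokine gene Pf4 (0.16 and 0.11). Those of Pdzk1ip1 began with Itm2b (0.16 and 0.14). In counts this sparse such weak correlations are descriptions only.

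Relatives and partners of the 6, from lists of genes fixed by name, are given as counts against the same size of 0.25. Of all genes at a mean of 5 CPM or more, 1.4% were higher and 2.58% lower by that size. Of 9 SLAM family genes and adaptors 7 were analysed here and 2 reached 5 CPM: Cd244, the CD48 receptor, at 20.8 and 21.2 CPM, and Cd84, at 22.1 and 19.7 CPM, neither past 0.25. Of 16 binding partners 10 were analysed and 6 reached that level and 0 were past 0.25; the highest difference was that of Slc9a3r1, a PDZ scaffold, at 0.12. Of 14 Ly6 family genes 2 were analysed and 1 reached it, Ly6e, at 380.2 and 362 CPM. Of 30 other antigens used to sort stem and progenitor cells 28 were analysed and 18 reached 5 CPM, with 0 higher and 3 lower past 0.25 and a median of -0.047, beside 0.019 over all genes at that level. The 3 were Itga2b, the CD41 of megakaryocytes, at 119 and 79.6 CPM, Itgb3, its partner, at 75.6 and 55.4 CPM, and Selp, the P-selectin of platelets, at 8.9 and 7.16 CPM. At the other end stood Kit, at 35.3 CPM (34.6 to 36) and 40.7 CPM (40.0 to 41.5), a difference of 0.20.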

How the data were processed

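For each of 2 libraries the authors deposited a gene by cell table of natural log values, in which a gene's molecules were divided by the cell's total, multiplied by 27408 and increased by 1 before the logarithm was taken, as the values themselves show. The submitters' processing notes name FastQC 0.11.9, Trim Galore 0.6.5, Cell Ranger 3.0.2 and the build mm10; no source used here gives the cell filter. Whole molecules were recovered within 0.05 for all 44114455 and 49560434 nonzero values. They were summed per library and scaled to CPM, and differences are log2((DFO CPM + 1)/(vehicle CPM + 1)). Thinning drew 10000 molecules per cell without replacement. Intervals cover counting error only and are narrow at 260938938 and 284326017 molecules. Neither replicate libraries nor a test exist here.

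Clusters came from scanpy 1.11.5 and leidenalg 0.10.2 in Python 3.11.15 (2000 variable genes without the 6 and without cell cycle, ribosomal protein and mitochondrial genes, 30 components, 15 neighbours, resolution 0.5, seed 0, no integration). A cluster was named where at least 3 fixed markers of a type were detected and at least 1 was among its 10 leading genes. The type also had to lead by its number of markers among them and by the mean fold of its markers. Scrublet's own threshold marked 0.0345% and 0.0203% of cells and did not work, so cells of both sexes and the top 8% of scores, 820 and 925 cells, were left out in an alternative. Female cells had 5 or more Xist molecules and no Y-linked ones; male cells had 2 or more Y-linked molecules and at most 1 of Xist. Groups were taken from the sample labels. The named genes are the 6, genes of fixed lists at a mean of 5 CPM or more, leading genes of clusters, and the 5 genes most correlated with each of the 6 in both libraries, of which 1 is not reported here. The 6 genes and the lists were chosen with earlier results of these data known. Sums were tested on simulated data with known differences. For joint detection only independent random draws were simulated, which says nothing on the pairs reported here. Alternatives changed pseudocount, weighting, centring, cell filter, depth, cluster shares, sex, fold size and resolution; rankings without Pf4 or Ifitm1 were added after seeing the data.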

Additional observations from a re-analysis of the deposited data

Results flagged for a closer look

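Cd48 differed between the libraries in opposite directions in 2 clusters. In the neutrophil-monocyte-like cluster it was higher in DFO by a log2 difference of 0.083, at 161 CPM (157 to 166) against 171 CPM (167 to 175). In unnamed cluster 4, led by Trp53inp1 and Aldoc, the difference was -0.14, at 126 CPM (121 to 131) against 114 CPM (109 to 119). In each cluster the counting intervals of the libraries were apart; the difference between the clusters was not tested, since each has 1 library per condition.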

How the results depend on the processing

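No paired analysis was possible because each condition has 1 library. Over 10 alternatives for the log2 differences, Slamf1 lay between -0.29 and -0.085, Ly6a between 0.22 and 0.41, Pdzk1ip1 between -0.48 and -0.30 and Cd48 between 0.0069 and 0.10, all 4 keeping their direction. Equal cluster shares left 1 gene past 0.25 in place of 3 and turned Procr to -0.024 and Cd27 to -0.069; the other alternatives left 2 or 3. The share of cells with Slamf1 and without Cd48 differed by -1.77 points at 20000 molecules per cell, -1.55 unthinned, -0.0571 with equal cluster shares and 0.095 with 2 molecules required. The excess of Cd48 among Slamf1-positive cells was -1.54 points at 5000 molecules, -0.608 in male cells and 9.86 unthinned in the vehicle, and -2.77 with 2 molecules required and 11 unthinned in DFO. Leaving Ifitm1 out of the HSC marker ranking turned the log2 ratio of the highest over the lowest quintile to -0.97 in the vehicle and -1.17 in DFO for Cd48, and to 0.82 and 1.01 for Pdzk1ip1; leaving Pf4 out of the megakaryocyte ranking turned none. The cause of these changes was not tested. With 1 library per condition, no depth allows a statement on variation between cultures, and Slamf1 and Procr are limited by 1 molecule in most positive cells.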

Other observations

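Procr levels (CPM) in the HSC-like cluster were lower in DFO at each of 3 clustering resolutions, at -0.11 with 4 clusters, -0.24 with 9 and -0.31 with 17, while Procr over all cells was higher by 0.13. The intervals of the libraries were apart with 17 clusters and overlapped with 4 and 9. Ly6a in the same clusters differed by 0.16, 0.075 and 0.045, beside 0.40 over all cells.

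Sca-1 transcripts in the cells richest in megakaryocyte markers stood at 8.38 CPM in the vehicle and 24.7 CPM in the DFO library, and Ly6a was detected in 5.63% (4.57% to 6.84%) and 13.2% (11.7% to 14.8%) of these cells. With Pf4 left out of the ranking the levels were 7.06 and 39.7 CPM. With Pf4 the top quintile began at 30 marker molecules in the vehicle and 15 in DFO, and without Pf4 at 15 and 11.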
